A study of Mus musculus with 19 samples.

Results

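The 2 TAC samples were hMeDIP-seq libraries of cardiomyocytes (CMCs) from adult C57BL/6J mice taken 1 week after transverse aortic constriction (TAC), a narrowing of the aorta that puts the left ventricle under pressure overload and makes its muscle cells grow. They were 2 of the 8 samples with a peak list among the 19 samples of the series, and they are described here alone. Male mice were used, the left ventricle was digested by retrograde perfusion, rod-shaped cells were collected by sedimentation, and purity was judged by staining for sarcomeric actinin. DNA fragments carrying 5-hydroxymethylcytosine (5-hmC) were pulled down with an antibody and sequenced beside input DNA that had not been precipitated. Whether each replicate pooled several hearts was not given in the sources used here. No surface marker was used to sort the cells, so that DNA of other heart cells can be present.

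The genes described are the 15516 autosomal protein-coding genes of at least 5 kb, of 21000 protein-coding genes on the autosomes and sex chromosomes in the RefSeq annotation of GRCm38 (mm10). For each gene, the percent of its span from first TSS to last transcript end that lay under 5-hmC peaks was computed in each replicate. Genes were ranked by the lower of both values, so that a gene led only where both replicates covered it. There was a single group of 2 replicates and no contrast, hence no test was made and each value is given for both replicates.

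5-hmC is made from 5-methylcytosine (5-mC) by the TET dioxygenases, mostly at CpG dinucleotides. In differentiated cells that have left the cell cycle it is found mainly in the bodies of active genes and at distal regulatory regions, and it is usually low at active promoters. The antibody enriches DNA fragments, not single cytosines, so a peak marks a stretch and regions with few CpGs give little signal.

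The stretches below show what lay under the peaks. The first lines are intronic windows of up to 200 bases that fell under peaks of both replicates in genes with high coverage. All are on the plus strand of GRCm38, 5′ to 3′, with each CG in capitals, since CpG is where most 5-hmC is found.
Hhatl, chr9:121786605-121786804: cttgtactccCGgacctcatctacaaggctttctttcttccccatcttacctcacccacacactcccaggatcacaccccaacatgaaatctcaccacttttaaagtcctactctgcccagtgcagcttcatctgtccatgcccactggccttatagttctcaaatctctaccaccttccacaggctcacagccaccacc
Des, chr1:75363710-75363909: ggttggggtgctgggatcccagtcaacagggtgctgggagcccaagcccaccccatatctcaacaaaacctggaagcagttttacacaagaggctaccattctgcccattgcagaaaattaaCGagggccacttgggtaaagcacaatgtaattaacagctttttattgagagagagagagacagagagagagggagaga
Mul1, chr4:138437879-138438078: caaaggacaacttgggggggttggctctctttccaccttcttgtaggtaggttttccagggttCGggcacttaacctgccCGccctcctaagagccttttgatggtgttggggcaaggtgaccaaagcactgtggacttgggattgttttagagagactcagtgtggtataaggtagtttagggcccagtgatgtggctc
Cdc42bpb, chr12:111354720-111354919: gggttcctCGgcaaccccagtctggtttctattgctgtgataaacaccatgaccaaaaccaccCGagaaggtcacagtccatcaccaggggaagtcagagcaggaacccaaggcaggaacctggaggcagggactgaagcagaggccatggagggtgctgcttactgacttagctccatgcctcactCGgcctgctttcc
Zbtb16, chr9:48662347-48662546: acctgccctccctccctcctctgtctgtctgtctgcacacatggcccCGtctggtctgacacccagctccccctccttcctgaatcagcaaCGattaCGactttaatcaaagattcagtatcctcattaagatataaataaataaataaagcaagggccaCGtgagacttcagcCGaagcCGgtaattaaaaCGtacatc
The window in Hhatl held 1 CpG and that in Des also 1, against 7 in Zbtb16. Windows under peaks of both replicates thus held few as well as many CpGs.

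The next lines show the centres of neighbouring peaks, called in replicate 1 and in replicate 2 respectively, that shared no base. In the intron of Myh7, the β-myosin heavy chain gene, the centres lay 553 bp apart, and in Ryr2, the gene of the calcium release channel, they lay 583 bp apart. In each gene the intronic pair of 501-bp peaks with a distance nearest to 550 bp was taken, so these distances follow from the choice. The pairs were printed because such side-by-side pairs were frequent in these data.
Myh7 replicate 1, chr14:54976902-54977101: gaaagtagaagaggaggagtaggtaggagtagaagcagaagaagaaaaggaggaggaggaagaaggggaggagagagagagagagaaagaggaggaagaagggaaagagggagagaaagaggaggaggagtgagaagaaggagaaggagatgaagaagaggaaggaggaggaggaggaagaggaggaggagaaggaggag
Myh7 replicate 2, chr14:54976349-54976548: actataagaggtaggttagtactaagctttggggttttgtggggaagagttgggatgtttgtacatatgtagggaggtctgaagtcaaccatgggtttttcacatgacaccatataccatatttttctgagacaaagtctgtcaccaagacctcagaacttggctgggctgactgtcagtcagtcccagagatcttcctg
Ryr2 replicate 1, chr13:12021067-12021266: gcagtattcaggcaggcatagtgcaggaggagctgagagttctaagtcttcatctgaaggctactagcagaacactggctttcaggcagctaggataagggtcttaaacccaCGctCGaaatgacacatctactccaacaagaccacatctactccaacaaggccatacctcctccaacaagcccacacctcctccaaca
Ryr2 replicate 2, chr13:12021650-12021849: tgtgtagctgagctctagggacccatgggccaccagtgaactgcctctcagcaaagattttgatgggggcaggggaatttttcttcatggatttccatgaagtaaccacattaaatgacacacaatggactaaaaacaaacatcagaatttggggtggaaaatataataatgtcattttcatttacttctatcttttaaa
In Myh7 the centre of the replicate 1 peak was a long run of purines with no CG, and the centre of the replicate 2 peak held no CG either. In Ryr2 the replicate 1 centre held 2 CpGs and the replicate 2 centre 0.

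TAC replicate 1 had 104964 peaks over 75.1 Mb, and replicate 2 had 107329 peaks over 65.1 Mb. The smallest peak width, 501 bp, was taken by 58.7% of the peaks of replicate 1 and 66.7% of those of replicate 2. Replicate 1 had more broad regions, with 2784 peaks of 2 kb or more against 357. The mean width was 715 bp in replicate 1 and 606 bp in replicate 2. The lists give no read counts, and their score column held the value 1 for every peak, so peaks could not be weighted by their strength.

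Of the 15516 genes, 9735 (62.7%) had a peak in both replicates, 3403 in 1 replicate only and 2378 (15.3%) in neither. The last are called bare below. Genes with peaks in 1 replicate only were split almost evenly, with 1717 in replicate 1 and 1686 in replicate 2. The median gene had 3.84% of its span under peaks in replicate 1 and 3.05% in replicate 2, and the median of the lower value was 1.81%. Replicate 1 was higher in 7813 genes (50.4%), replicate 2 in 4782, and 543 genes had the same value above 0. Coverage of 10% or more in both replicates was reached by 1345 genes (8.67%), and 20% by 162. Among the 1345, replicate 1 was higher in 1146. Across the 15516 genes, which share libraries and peak calls and are not independent, replicate 1 and replicate 2 had a Pearson r of 0.614 and a Spearman rho of 0.562.

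**Figure D1:**
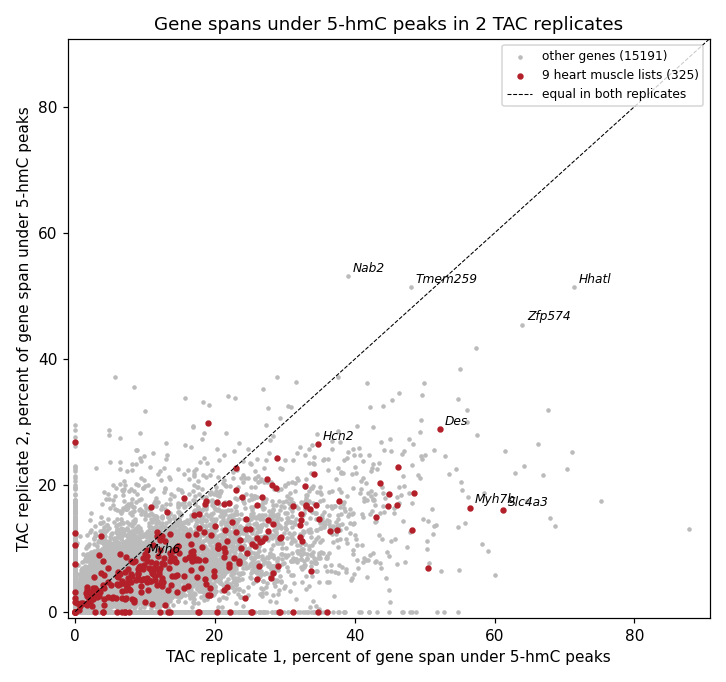
Percent of the gene span under 5-hmC peaks in TAC replicate 1 (x axis) and TAC replicate 2 (y axis), 1 point per gene, with the 325 genes of the 9 heart muscle lists in red and equality as a dashed line. Hhatl has the highest lower value, with 71.4% and 51.4%, and high values lie mostly on the side of replicate 1.

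The 30 leading genes had between 28.9% and 71.4% of their spans under peaks in replicate 1 and between 28.1% and 53.1% in replicate 2. They were short, from 5.79 to 15.4 kb, with 20 under 10 kb, and replicate 1 was higher in 23 of them. Their median CpG density was 2.39 per 100 bp, against 1.19 over all genes, and their median share of repeat-masked bases was 12.2%, against 23.9%. A gene of this length passes the ranking with 1 or a few peaks. The last gene included was Klf11, a Krüppel-like transcription factor, with 34.5% in replicate 1 and 28.1% in replicate 2, and the first left out was Calm3, a calmodulin gene, with 57.5% and 27.9%.

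Hhatl (chr9:121784016-121792507) led the list. It encodes a hedgehog acyltransferase-like protein of striated muscle, and 71.4% of its 8.49 kb lay under peaks in replicate 1 and 51.4% in replicate 2. The bases under peaks of both replicates made up 45.5% of the gene, the highest such share of the 30, from 3 peaks in each replicate. Tmem259, a membrane protein gene that overlaps Grin3b, had 48.0% and 51.4%. Zfp574, a zinc finger gene, had 64.0% and 45.4%, and peaks of either replicate together covered 87.1% of it. Mul1, which encodes a ubiquitin ligase of the mitochondrial outer membrane, had 57.4% and 41.8%. In Nab2, a corepressor of early growth response factors that overlaps Stat6, replicate 2 was the higher, with 39.1% and 53.1%.

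The other leading genes are described in the order of their known roles, which were assigned after the ranking and not tested as groups. Nr1d1, the circadian repressor REV-ERBα, which overlaps the thyroid hormone receptor gene Thra, had 56.0% in replicate 1 and 32.0% in replicate 2. Zbtb7a, a zinc finger repressor, had 42.2% and 32.4%, and Csrnp1, a nuclear protein gene, had 49.8% and 36.2%. Egln2, one of the prolyl hydroxylases that mark hypoxia-inducible factors for degradation, had 45.4% and 33.6%. In these genes every value was above 30%, and replicate 1 was the higher.

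Several leading genes encode receptors or adaptors of extracellular signals. Ticam1, the adaptor of Toll-like receptors known as TRIF, had 55.1% and 38.5%. Fzd5, a Wnt receptor, had 41.8% and 36.3%, and Ltbr, the lymphotoxin β receptor, had 29.3% and 30.7%. The last was among the few leading genes with a higher value in replicate 2. Sphk2, a sphingosine kinase gene that overlaps Dbp, had 67.6% and 31.9%, a wide gap between replicates. Tnfaip2, a gene induced by tumour necrosis factor, had 54.7% and 33.8%.

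Others act in protein synthesis, transport and mitochondria. Eef2, the elongation factor that moves the ribosome along the mRNA, had 46.3% and 34.6%, from 1 peak in each replicate, and the replicate 2 peak lay wholly inside that of replicate 1. Naca, part of the complex that binds nascent proteins, had 31.6% and 36.4%. Rab1b, a GTPase of transport between endoplasmic reticulum and Golgi, had 44.0% and 32.5%. Phb, prohibitin of the inner mitochondrial membrane, had 37.5% and 28.6%. None of these is in a heart muscle list.

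The last ones described are structural. Des, the intermediate filament of the muscle Z-disc, had 52.2% and 28.9% and was the only leading gene that was also in a heart muscle list. Zyx, a focal adhesion gene that overlaps Epha1, had 49.3% and 28.5%. Serpinh1, the collagen chaperone HSP47, had 49.4% and 30.3%, and Bcam, a laminin receptor, had 56.1% and 30.02%. In 8 of the 30 leading genes the span overlapped another gene, so that their peaks cannot be assigned to 1 gene. The other leading genes were Palm3, Tinagl1, Trim46, Plk2, Gas2l1, Slc48a1 and Zfp628.

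**Figure D2:**
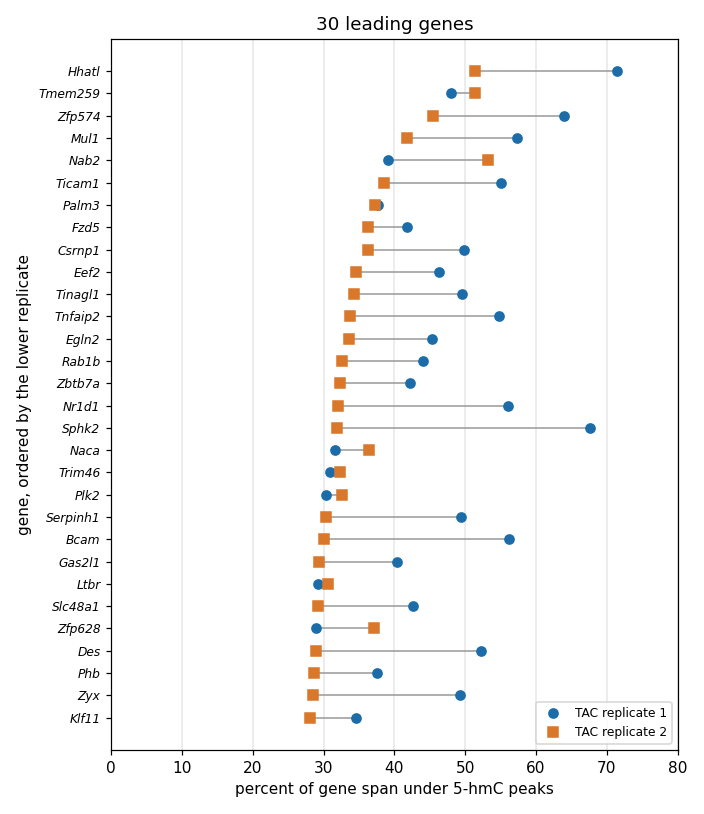
The 30 leading genes from the highest lower value down, with the percent of the gene span under 5-hmC peaks in TAC replicate 1 (circles) and TAC replicate 2 (squares) joined by a line. Replicate 1 is the higher in 23 genes, and Sphk2 shows one of the widest gaps, 67.6% against 31.9%.

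Among genes of 50 kb or more, in which a single peak weighs little, Cdc42bpb had the highest lower value. This kinase of actomyosin contraction had 39.7% of its 84.7 kb under peaks in replicate 1 and 25.8% in replicate 2, from 21 and 24 peaks. Wbp1l had 47.1% and 25.4%, Ccdc85c had 61.4% and 25.4%, and Rassf3 had 40.8% and 24.8%. Ndst1, an enzyme of heparan sulphate synthesis, had 39.9% and 24.9%. Among genes of 100 kb or more the first was Mtss1, which binds actin and membranes, with 37.7% and 22.7%. Zbtb16, the zinc finger factor PLZF, had 43.1% and 22.6% over 184 kb, from 47 and 48 peaks. Of the 47 replicate 1 peaks in Zbtb16, 24 overlapped a replicate 2 peak and 35 lay within 1 kb of one. Mgll, a monoglyceride lipase, had 33.0% and 21.02%, Mbnl2, a splicing factor of the muscleblind family, had 39.7% and 19.6%, and Casz1, a zinc finger factor of heart development, had 37.7% and 19.4%. These long genes carried many peaks of both replicates along their spans.

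The heart muscle genes were taken from 9 lists with 325 genes of at least 5 kb. The lists and members were chosen with earlier results of these data known, and they include genes the study named for 5-hmC, such as Myh7, Ppara and Xirp2. The comparisons with all genes are therefore a description and not independent support. Of these, 286 (88.0%) had peaks in both replicates, against 62.7% of all genes, and 10 (3.08%) were bare, against 15.3%. Coverage of 10% or more in both replicates was reached by 89 (27.4%), against 8.67%. The median over the lists was 12.4% in replicate 1 and 6.47% in replicate 2. Longer genes more often had a peak, and the listed genes had a median length of 36.6 kb against 25.3 kb over all genes, so both sets were also set side by side within classes of length. Between 5 and 10 kb, 19 of 39 listed genes (48.7%) had peaks in both replicates, against 825 of the 2748 other genes. Between 20 and 50 kb the figure was 93 of 96 (96.9%), against 66.2%. At 200 kb and over, the median lower value was 5.34% in the listed genes and 1.53% in the others. Within the CpG quartile with the densest CpGs, 51.5% of the listed genes and 20.2% of the others reached 10% in both replicates. The listed genes had the higher median lower value in each of the 4 CpG classes and in 5 of the 6 length classes, the exception being 5 to 10 kb, where both medians were 0.

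For the lists that follow, the shares over all genes were 62.7% with peaks in both replicates, 15.3% bare and 8.67% at 10% or more. Ion channels, pumps and connexins had the highest share at 10% or more, with 14 of 29 genes, and list medians of 17.0% and 10.1%. Hcn2, a pacemaker channel, had 34.7% and 26.5%, the highest lower value of the list. Of the 29 genes, 28 had peaks in both replicates and none was bare, the exception being Gja1, connexin 43, with 0 in replicate 1 and 12.4% in replicate 2.

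Among 48 sarcomere and Z-disc genes, 38 had peaks in both replicates and 12 reached 10% in both. After Des, the leading members were Myh7b, a myosin heavy chain, with 56.5% and 16.5%, and Pdlim1, a Z-disc adaptor, with 17.8% and 15.5%. The α-myosin heavy chain gene Myh6 had 9.65% and 8.54%, and Myh7 had 13.4% and 6.85%. In Myh7 no base lay under peaks of both replicates, although 5 and 4 peaks were called in it. The essential light chains differed, with 8.18% and 1.99% in Myl3 and 16.8% and 9.67% in Myl4. Xirp2, an actin-binding repeat protein of the intercalated disc, had 8.02% and 4.73%.

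Calcium handling genes had peaks in both replicates in 18 of 20 (90%). Their median length was 116 kb, and 93.4% of all genes of 100 to 200 kb had peaks in both, so this share was near that of their length. Orai1, a store-operated calcium channel, had 22.4% and 14.2%, and Cacna1c, the L-type calcium channel, had 21.7% and 11.2%. Ryr2, the calcium release channel of the sarcoplasmic reticulum, had 11.03% and 6.08%, and Atp2a2, the reuptake pump SERCA2, had 2.72% and 3.07%. Pln, which encodes the inhibitor of that pump, was the only bare gene of the list, and its span overlaps Cep85l. Of the 36 intercalated disc and costamere genes, 34 (94.4%) had peaks in both replicates and none was bare. Their median length was 53.5 kb, and 85.3% of all genes of 50 to 100 kb had peaks in both. Jup, plakoglobin, led with 28.9% and 24.4%, and Dsp, desmoplakin, had 25.01% and 13.1%.

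Fatty acid genes included 13 of 36 at 10% or more in both replicates. Acadvl, the first enzyme of very long chain fatty acid oxidation, had 23.0% and 22.8%. These came from 1 peak in each replicate, and only 5.64% of the span lay under peaks of both. Pnpla2, the triglyceride lipase ATGL, had 34.1% and 21.7%, and Acads, the short chain dehydrogenase, had 27.5% and 21.1%. Their regulator Ppara had 20.1% and 13.5%. Glucose genes had the widest gap between replicate medians, 20.5% and 6.46%, and 8 of 25 reached 10% in both. Pygm, muscle glycogen phosphorylase, had 46.2% and 22.9%, Pdk2, a kinase that inhibits pyruvate dehydrogenase, had 32.9% and 19.8%, and Gys1, glycogen synthase, had 26.0% and 16.9%. In the TCA cycle and oxidative phosphorylation list, 32 of 41 had peaks in both replicates. Sdhb, a subunit of complex II, had 48.2% and 13.0%. Dlst, of the 2-oxoglutarate dehydrogenase complex, had 18.5% and 17.0%.

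Hypertrophic and adrenergic signalling genes had peaks in both replicates in 46 of 48 (95.8%), with 10 at 10% or more. Their median length was 113 kb, and 93.4% of all genes of 100 to 200 kb had peaks in both, so the first share was near that of their length. Adcy6 and Adcy5, the main adenylyl cyclases of the heart, had 43.7% and 20.4%, and 17.6% and 13.3%. Rcan1, a calcineurin inhibitor that calcineurin itself induces, had 48.4% and 18.9%, and a single replicate 1 peak of 11143 bp lay over it, the second widest of that replicate. Of 42 cardiac transcription factors and nuclear receptors, with a median length of 89.8 kb, 40 (95.2%) had peaks in both replicates and 14 reached 10%. Among all genes of 50 to 100 kb, 85.3% had peaks in both. Foxo3 had 44.9% and 18.7%, Thra had 23.8% and 18.1%, and Tbx5, a factor of heart development, had 18.7% and 17.6%. The cardiac factor genes Gata4 and Gata6 were lower in replicate 2, with 7.24% and 2.16%, and 9.995% and 1.51%. Mef2a had 5.44% and 2.35%, Mef2c had 5.98% and 5.56%, and Hif1a had 5.90% and 2.17%.

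**Figure D3:**
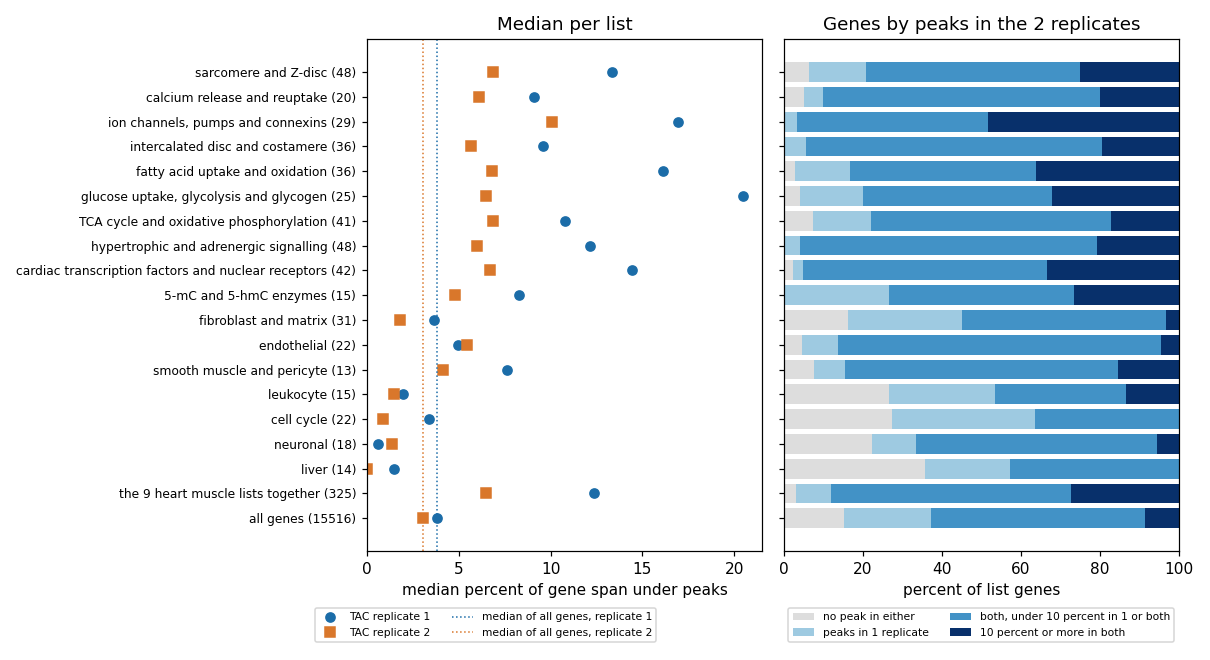
Left, the median percent of the gene span under peaks per gene list in TAC replicate 1 (circles) and TAC replicate 2 (squares), with the medians of all genes as dotted lines. Right, the percent of list genes with no peak, with peaks in 1 replicate, with peaks in both, and with 10% or more in both, with the number of genes in brackets. The 9 heart muscle lists lie above both dotted lines, and the fibroblast, neuronal, leukocyte, cell cycle and liver lists lie below the dotted line of each replicate.

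The enzymes that write, oxidise and remove 5-mC had peaks in both replicates in 11 of 15 genes (73.3%) and none was bare, against 62.7% and 15.3% of all genes, a small difference for so few genes. Tet3 had 22.4% and 10.9%, Tet1 8.27% and 5.33%, and Tet2 8.10% and 3.31%. Dnmt3a, a de novo methyltransferase, had 26.1% and 11.4%, and Idh2, which makes the TET cosubstrate 2-oxoglutarate in mitochondria, had 17.3% and 12.2%. The order Tet3, Tet1, Tet2 held in both replicates, with Tet1 and Tet2 nearly level in replicate 1.

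Most lists of other cell types and states had lower coverage than the heart muscle lists. Of the CMC markers, Myl2, Tnnt2, Ttn, Actn2, Ryr2, Atp2a2 and Myh6 had peaks in both replicates and Actc1 and Pln were bare. Fibroblast and matrix genes had medians of 3.63% and 1.81%, and 17 of 31 (54.8%) had peaks in both replicates, against 62.7% of all genes. Col3a1 (38.2 kb), Pdgfra (46.0 kb) and Fap (73.1 kb) were bare, Col1a2 had 0 and 1.39%, Vim had 5.88% and 0, and Tcf21, too short for the ranking, was bare too. The higher members were Gsn, with 16.3% and 10.9%, Tgfb1, with 9.75% and 19.7%, and Sparc, with 8.56% and 9.87%. Endothelial genes were higher, with medians of 4.98% and 5.44%, and 19 of 22 (86.4%) had peaks in both replicates. Lyve1 had 10.2% and 10.7%, Eng 18.1% and 9.63%, and Mmrn2 12.3% and 8.92%, while Sox17 was bare. The endothelial markers Pecam1, Cdh5, Kdr, Flt1, Tek and Tie1 all had peaks in both replicates. Pecam1 was highest at 10.6% and 8.70%, and Tek had the lowest lower value, with 0.529% and 3.54%. In Cdh5, with 4.06% and 1.46%, no replicate 1 peak lay within 1 kb of a replicate 2 peak. These markers were 18.7 to 164 kb long. Among all genes, 48.8% of those of 10 to 20 kb and 93.4% of those of 100 to 200 kb had peaks in both. The part of endothelial DNA in these values was not tested. All 3 smooth muscle markers looked at for cell type had peaks in both replicates. Myh11 had 3.83% and 2.80%, Acta2 13.6% and 1.64%, and Tagln, whose span overlaps Pcsk7, 10.2% and 9.77%. In Acta2 and Tagln no base lay under peaks of both replicates, and no replicate 1 peak lay within 1 kb of a replicate 2 peak. The 13 smooth muscle and pericyte genes had medians of 7.61% and 4.14%. Smtn, smoothelin, had 26.1% and 21.5%, Notch3 10.6% and 12.7%, and Cnn1 was bare.

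Cell cycle genes had peaks in both replicates in 8 of 22 (36.4%), and none reached 10% in both, against 62.7% and 8.67% of all genes. Their median length was 14.8 kb. Among all genes, 30.3% of those of 5 to 10 kb and 48.8% of those of 10 to 20 kb had peaks in both, so the first share lay in the range of short genes. The highest were the inhibitor Cdkn1a, with 17.0% and 7.44%, and the D-type cyclins Ccnd1, with 12.7% and 6.38%, and Ccnd2, with 9.29% and 6.10%. Bub1, Plk1 and Cdkn2a were bare. Leukocyte genes had medians of 1.94% and 1.46%, and Adgre1 (125 kb), the macrophage marker F4/80, was among the longest bare genes. Spi1 had 11.1% in each replicate, but only 0.147% of its span lay under peaks of both. C1qb had 12.6% and 10.4%, while Ms4a1 and Fcgr1 were bare. Neuronal genes had medians of 0.608% and 1.36%, with Snap25, Stmn2 and Gad1 bare and Slc17a7 highest at 13.7% and 12.3%, before Grin1 at 5.37% and 8.08% and Mapt at 10.02% and 5.29%. In 14 liver genes the medians were 1.47% and 0, with Alb, Cyp7a1 and Tat bare. Pck1, with 17.8% and 8.08%, was the highest liver member, before Apob with 2.16% and 2.38% and Cyp3a11 with 1.98% and 3.97%.

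The 10 bare heart muscle genes were all short, from 5.21 to 11.4 kb. In the sarcomere list they were Actc1, cardiac α-actin, Lmod2, a nucleator of thin filaments, and Cryab, the chaperone αB-crystallin. Those of metabolism were Fabp3, the heart fatty acid binding protein, Aldoa, a glycolytic aldolase, and Atp5b, Ndufb8 and Cox5a of the respiratory chain and ATP synthase. Pln and Isl1, a factor of cardiac progenitors, made up the rest. Bareness was common at this length, since 36.2% of all genes of 5 to 10 kb and 21.4% of those of 10 to 20 kb were bare, against 8 of 39 and 2 of 53 listed genes.

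Bare genes differed in how far the nearest peak lay. For Lmod2 it lay 0.503 kb away in replicate 1 and 0.685 kb in replicate 2, so peaks of both replicates flanked this gene. For Aldoa the distances were 0.42 and 14.455 kb, for Atp5b 1.87 and 7.78 kb, for Fabp3 2.42 and 3.75 kb, and for Cryab 1.37 and 10.9 kb. For Actc1 they were 7.53 and 3.76 kb, and for Pln 7.48 and 1.33 kb. Ndufb8 had a peak of replicate 2 at 0.594 kb and of replicate 1 at 16.0 kb, and Cox5a had peaks at 7.76 and 14.53 kb. Isl1 stood apart, with no peak within 44.1 kb in replicate 1 and 67.7 kb in replicate 2. The first 9 therefore had a peak of at least 1 replicate within 8 kb, and Isl1 did not.

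The heart lists also held 30 genes under 5 kb, which were left out of the ranking. Of these, 15 were bare, 13 had peaks in 1 replicate and 2 in both. Over all 4505 autosomal protein-coding genes under 5 kb, 70.3% were bare, 20.5% had peaks in 1 replicate and 9.19% in both, so the share with peaks in both was low for short genes in general. Myl7, atrial light chain, was among the last, with 41.9% and 23.3%. The bare ones included Acta1, Tnnc1, Tcap, Sln, Nppb and Adrb1. Nppa, atrial natriuretic peptide, had 43.3% in replicate 1 and 0 in replicate 2, whereas Tnni3, cardiac troponin I, had 0 and 50.3% and Nkx2-5 0 and 17.3%. At this length a single peak sets the value, and no call held in both replicates for 28 of the 30.

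Longer genes more often had a peak, whereas high coverage was not more frequent among them. Peaks in both replicates were found in 30.3% of genes of 5 to 10 kb and in 97.3% of genes of 200 kb or more, and the share of bare genes went from 36.2% to 0. The share at 10% or more in both replicates was 10.8% in the shortest of these classes and 4.79% in the longest, and the median in replicate 1 was 3.89% and 1.82%. Across genes, the lower value and gene length had a Pearson r of -0.0262 and a Spearman rho of 0.236. CpG density went with the share covered. From the quartile of genes with the fewest CpGs to that with the most, the share at 10% or more in both replicates was 0.155%, 3.12%, 10.5% and 20.9%. Bare genes had a median of 0.917 CpGs per 100 bp, and the 595 bare genes of 20 kb or more had 0.736, against 1.07 in all 9105 genes of that length. The longest bare genes were Frmd3 (189 kb), Gabra2 (137 kb), a GABA receptor subunit, Bmp5 (125 kb), Adgre1 and Gm5622 (110 kb). Across genes, the lower value and CpG density had a Pearson r of 0.356 and a Spearman rho of 0.339, as a description over genes that share both libraries.

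Gene families named by a shared symbol prefix differed widely, against 62.7% of all genes with peaks in both replicates and 15.3% bare. Of 127 vomeronasal receptor genes (Vmn), 1 had peaks in both replicates and 107 were bare, and of 46 olfactory receptor genes (Olfr) 4 and 34. The placental prolactin family (Prl) had 24 bare genes of 25. Median CpG density was low in these families, at 0.371 per 100 bp in Vmn, 0.437 in Olfr and 0.398 in Prl, against 1.19 over all genes. In the quartile of all genes with the fewest CpGs, 28.8% were bare. Olfr and Prl genes were also short, with medians of 7.23 and 7.50 kb, and 36.2% of all genes of 5 to 10 kb were bare. Poorly mapped reads had been dropped before peaks were called. Whether this took reads from families of similar genes was not tested, so bare here does not mean that 5-hmC is absent. The highest median lower value, 6.63%, was that of the guanine nucleotide exchange factors of the Arhgef prefix, with peaks in both replicates in 22 of 23. Their median length was 81.3 kb, and 85.3% of all genes of 50 to 100 kb had peaks in both replicates. The zinc finger prefix Zfp spanned the range, with 150 of 364 in both replicates, 100 bare and 27 at 10% or more.

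The share of peaks that overlapped between replicates was lower than the share of genes with peaks in both. These measures differ, since a gene counts even where its peaks share no base, and longer genes more often count. Of the replicate 1 peaks, 22044 (21%) overlapped a replicate 2 peak by at least 1 bp, and 39.9% lay within 1 kb of one. For replicate 2, 22524 (20.99%) overlapped and 38.4% lay within 1 kb. Per 1000 replicate 1 peaks, 29.8 replicate 2 centres fell in the 100-bp bin around +550 bp, and 29.4 in that around -550 bp. Next to the replicate 1 centre, at -50 bp, only 8.40 fell, below the 9.84 found at -1950 bp. Where a replicate 2 centre lay near a replicate 1 centre, it was thus more often beside it than on it. Of the 104477 autosomal replicate 1 peaks, 4.46% had a replicate 2 centre within 250 bp, 25.6% had one on 1 side at up to 1 kb, 1.09% on both sides, and 68.8% none. In genes, the side was 5′ in 53.0% and 3′ in 47.0%.

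**Figure D4:**
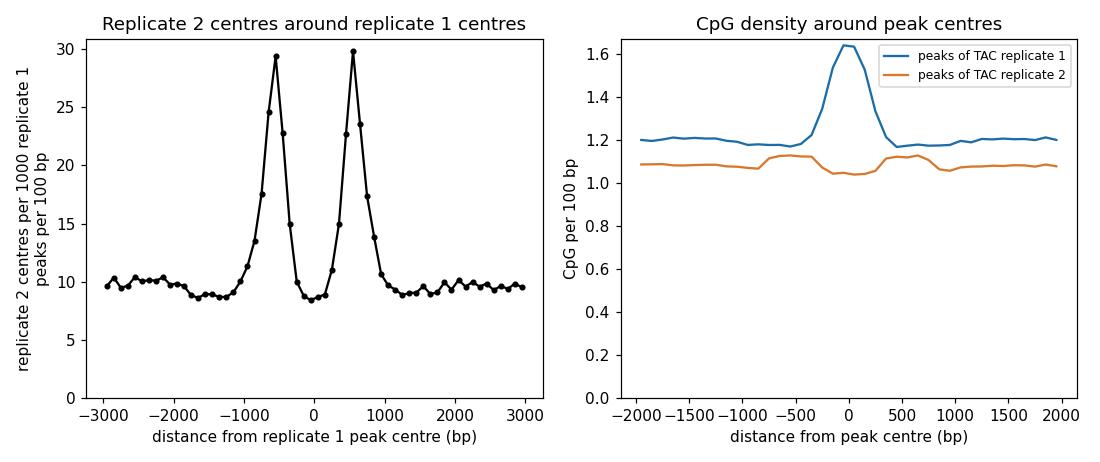
Left, replicate 2 peak centres per 1000 replicate 1 peaks in 100-bp bins of distance from the replicate 1 centre. Right, CpG density per 100 bp around the peak centres of each TAC replicate. Replicate 2 centres pile up at about 550 bp on either side, and CpG density rises at the centre of replicate 1 peaks and dips at the centre of replicate 2 peaks.

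The base composition under the peaks also differed between replicates. Replicate 1 peaks held 1.60 CpGs per 100 bp and replicate 2 peaks 1.08, against 0.851 over the autosomes. Bases under peaks of both replicates held 1.62, those of replicate 1 only 1.59 and those of replicate 2 only 1.004. Around replicate 1 centres CpG density reached 1.64 per 100 bp, and around replicate 2 centres it was 1.04, with shoulders of 1.13 at 550 bp. Among peaks of the smallest width, 1.97% in replicate 1 and 6.21% in replicate 2 held no CG at all, against 7.80% of all 501-bp windows of the autosomes. Replicate 2 peaks with a replicate 1 peak within 1 kb were at 3.32% and those without one at 7.54%, near the level of all windows. Runs of at least 60 purines on either strand, as in the Myh7 window, were present in 3.57% of such replicate 1 peaks and 3.82% of such replicate 2 peaks, against 2.46% of all windows. For CA repeats of at least 15 units on either strand, the shares were 2.95% and 3.67%, against 3.46%. A match describes the letters only. The cause of the displacement was not tested.

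Along genes, coverage was low at the TSS in replicate 1 and not in replicate 2. At 50 bp before the TSS, 2.78% of bases lay under replicate 1 peaks and 5.16% under replicate 2 peaks. At 1850 bp after the TSS these were 8.48% and 5.20%. In heart muscle genes coverage of replicate 1 rose from 7.18% in the first 5% of the span to 18.1% in the last 5%. In replicate 2 these values were 5.77% and 7.01%, and the highest, 9.57%, lay at 67.5% of the span. Exons had more coverage than introns in replicate 1 of the heart lists, with 22.0% against 9.99% of bases, and less so in replicate 2, with 7.86% against 5.93%. Over all genes the exon and intron values were 8.62% and 5.21% in replicate 1 and 4.14% and 3.77% in replicate 2. The dip at the TSS and the preference for exons were thus features of replicate 1 in the main.

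**Figure D5:**
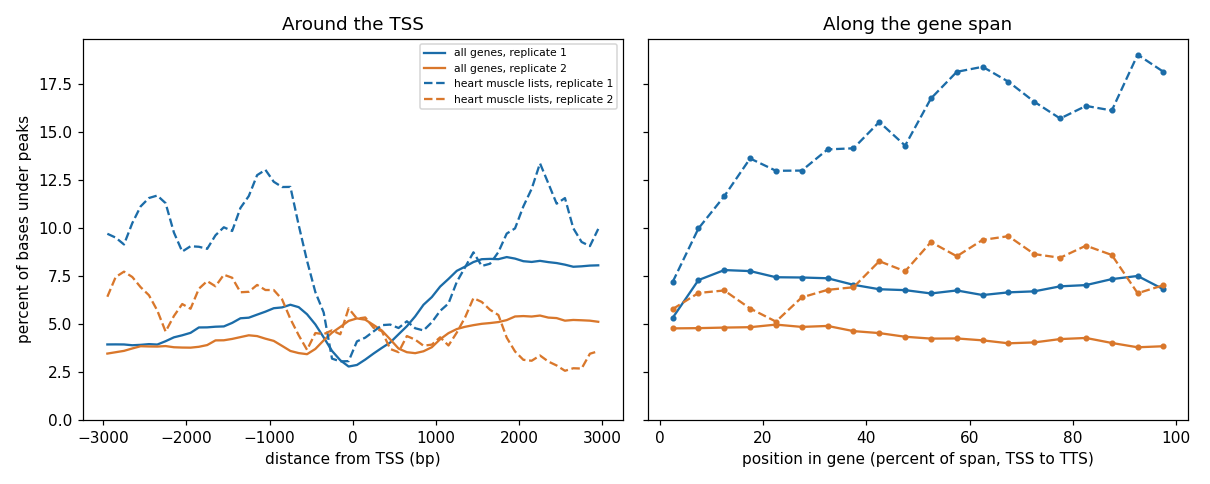
Percent of bases under 5-hmC peaks by distance from the TSS (left, bp) and by position along the gene span (right, percent), for all genes (solid) and heart muscle lists (dashed) in TAC replicate 1 (blue) and TAC replicate 2 (orange). Replicate 1 falls to 2.78% just before the TSS of all genes, and heart muscle genes rise along the span in replicate 1.

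On the scale of chromosomes, the 2454 autosomal windows of 1 Mb had a median lower value of 1.83%, and 67 had no peak in either replicate. The autosomes hold 2395.91 Mb of known bases, less than these windows span. Windows with unknown sequence, where no read can map, were thus included in the median and can be among the 67. How many of the 67 were of this kind was not tested. The window with the highest lower value was chr8:120000001-121000000 with 19.8% and 10.5%, which holds 10 genes with peaks in both replicates. The next, chr2:167000001-168000000, with 18.3% and 10.2%, held 7 genes at 10% or more. The widest peaks were a replicate 1 peak of 12002 bp in Ski, a corepressor of TGFβ signalling, and a replicate 2 peak of 6534 bp in Dnah12. Replicate 2 peaks covered 33.1% of the Ski peak and replicate 1 peaks 36.3% of the Dnah12 peak. In Cdc42bpb, a 3943-bp replicate 2 peak was covered to 95.6% by replicate 1, and the Cdc42bpb window printed above lies in it.

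Coverage in 1 replicate only could be high. Chosen after the values were seen, among genes of 20 kb or more, were Sh2b3 with 26.5% and 0, Itprid2 with 21.7% and 0 and Napg with 16.3% and 0 in replicates 1 and 2. The reverse held for Glipr2 with 0 and 15.9%, Hspbp1 with 0 and 14.47% and Coq7 with 0 and 13.2%. Sh2b3 encodes an adaptor of cytokine receptors, and Coq7 an enzyme of coenzyme Q synthesis.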

How the data were processed

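Per the study's methods, the authors used BWA 0.7.4-r385 to map hMeDIP and input reads to mm10 and Picard to mark duplicates. Poorly mapped reads were dropped by bamtools. HOMER in histone mode then called peaks against input, replicate by replicate. The deposited lists give chromosome, start and end of each peak and a score that is 1 throughout, without read counts per peak, so no counting error could be given and the precision is only that of 2 replicates. Files of the other samples were not used.

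Peaks were merged within a replicate. Gene spans came from curated RefSeq transcripts on GRCm38, whose chromosome lengths hold all peaks, and the percent of each span under peaks was computed with Python 3.11.15 and numpy 2.4.6. The computation was tested on 20000 simulated peaks against bedtools 2.31.1. Named genes were the 30 with the highest lower value, the 5 highest of at least 50 kb and of at least 100 kb, the 5 longest bare genes, in each list the 3 highest and the 3 longest bare members, and genes named by the study for 5-hmC. The members and lists were chosen with earlier results of these data known. Other genes are named as examples chosen after their values were seen. Alternatives were another annotation (GENCODE M21), gene bodies, wider or fewer peaks, other lengths and each replicate alone. A few genes that this rule would name are not reported here.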

Additional observations from a re-analysis of the deposited data

Results flagged for a closer look

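Genes on the X chromosome were outside the ranking. In the 642 X-linked genes of at least 5 kb, peaks in both replicates were found in 49 (7.63%), and 471 (73.4%) were bare, against 62.7% and 15.3% of the autosomal genes. This was looked at because it is a signal in data outside the main measurement, with no control samples among those used here. The X chromosome had 475 peaks in replicate 1 and 277 in replicate 2. The study described 5-hmC density on the X chromosome as similar to that on autosomes. That density came from mapped reads, a different measure from called peaks, so few peaks here do not mean that 5-hmC is absent. Coverage of 10% or more in both replicates was reached by 3 X-linked genes, namely Gata1 with 11.6% in both, Pja1 with 57.8% and 10.02%, and 1700013H16Rik with 15.8% and 11.9%. The cause of the low count was not tested.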

How the results depend on the processing

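With 1 group of 2 replicates, each alternative gives a count or median and no test. Of 61 values, 33 stayed near the main one and 28 moved. Each replicate alone gave 4064 to 4095 bare genes, a median of 3.05% to 3.84%, 1784 to 3784 genes at 10% or more, 17 to 32 bare heart muscle genes (32 without replicate 1 and 17 without replicate 2), and 7 to 21 of the 30 leading genes. With peaks wider than 501 bp only, peaks in both replicates were left in 5429 genes, 5636 were bare, the median was 0, 528 reached 10%, 26 heart muscle genes were bare and 19.9% of replicate 1 peaks were shared. With the 50% of peaks listed first (chosen after seeing the data), 4617 genes were bare, the median was 0, 660 reached 10% and 21 heart muscle genes were bare. With peaks widened by 500 bp the median was 5.14%, 5384 genes reached 10% and 16 leading genes remained. Bare genes numbered 3581 among genes of 2 kb or more and 1370 among those of 10 kb or more, and 10 leading genes have 10 kb or more. Ranking by the mean left 17 leading genes in place and ranking by bases common to both replicates 16. Replicate 1 peaks were shared in 39.9% at a gap of up to 1 kb and 3.82% where 50% of both peaks had to overlap. Fewer or wider peaks, 1 replicate alone, other length limits and other rules of sharing change these counts by construction. The cause of the other shifts, such as those in the leading genes under other rankings, was not tested. Counts under the other annotation and in gene bodies moved by less than 1.5 times, with 28 and 25 leading genes kept. No paired analysis was possible because there is only 1 group.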
